A study of Mus musculus with 6 samples.

Results

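The genes described here are 32 genes of mouse that encode the folding machinery of the endoplasmic reticulum (ER), the sensors of the unfolded protein response, the ER-associated degradation machinery and the protein translocation channel. All 32 were found by symbol among the 45706 genes of the expression table. All 32 also passed the low-count filter, which left 12224 genes for testing. RNA-seq was made from primary bone marrow-derived macrophages of mouse, cells that become bone-resorbing osteoclasts when given the cytokine RANKL. There were 3 groups of 2 libraries: cells given RANKL and sodium acetate and taken at day 1, cells given RANKL alone and taken at day 1, and untreated cells taken at day 0. The labels give no strain, sex, age or dose, and leave unsaid whether both libraries of a group came from separate cultures or animals. The p-values thus reflect the spread between the libraries at hand, which may be technical. No group was kept for 1 day without RANKL, and none was given another sodium salt, so RANKL and the day in culture cannot be told apart, and neither can acetate and the salt it was given as.

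Proteins that are secreted or sit in membranes enter the ER through a channel in its membrane, fold there with the help of chaperones, gain sugar chains and disulfide bonds, and are pulled back out and degraded when folding fails. When unfolded proteins build up, the sensors encoded by Ern1, Eif2ak3 and Atf6 are released from the chaperone BiP and start the unfolded protein response, in which ATF6 and XBP1 switch on genes of chaperones and degradation while the Eif2ak3 product slows protein synthesis. Macrophages secrete lysozyme and display many receptors, and osteoclasts release proteases and acid phosphatase onto bone, and all of these proteins pass through the ER.

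Many genes of this response carry the ER stress response element in their promoter, a CCAAT box and a CCACG box set apart by a fixed spacer. Promoter sequences from RefSeq (GRCm38.p6, from 250 bases before to 50 bases after the transcript start) were matched by symbol for 26 of the 32 genes; Atf6, Derl1, Hyou1, Manf, Sec61a1 and Ssr2 were not matched. Both strands were searched for the element, written as CCAAT, 9 bases of any kind and CCACG, and for its shorter form ERSE-II, written as ATTGG, 1 base of any kind and CCACG. The element was found in 8 of the 26 genes (30.8%), against 37 of all 27025 genes in the promoter table (0.137%). The element is known from genes of this response, and the 32 genes were chosen for such functions. A high share was thus likely from the start, and no test of it was made. The 8 genes were Hspa5, Hsp90b1, Dnajc3, Creld2, Calr, Canx, Pdia6 and Syvn1, and Hsp90b1 held it at 2 places. Their elements are shown because they hold the shared element around which these promoters can be compared, and they read along the gene's own strand with the fixed letters of the element in capitals. Where the element lies on the other strand, its capitals read CGTGG and ATTGG.
Hspa5 (chr2:34772020-34772048, plus strand): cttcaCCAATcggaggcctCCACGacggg
Hsp90b1, far (chr10:86705626-86705668, minus strand): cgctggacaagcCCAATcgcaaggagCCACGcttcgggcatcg
Hsp90b1, near (chr10:86705521-86705563, minus strand): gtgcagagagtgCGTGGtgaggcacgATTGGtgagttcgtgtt
Dnajc3 (chr14:118937815-118937857, plus strand): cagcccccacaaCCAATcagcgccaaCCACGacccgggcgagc
Creld2 (chr15:88819508-88819550, plus strand): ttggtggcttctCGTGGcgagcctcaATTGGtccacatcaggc
Calr (chr8:84847063-84847105, minus strand): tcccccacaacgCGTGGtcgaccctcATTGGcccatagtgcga
Canx (chr11:50325788-50325830, minus strand): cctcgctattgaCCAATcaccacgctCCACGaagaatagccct
Pdia6 (chr12:17266479-17266521, plus strand): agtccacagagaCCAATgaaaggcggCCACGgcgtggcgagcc
Syvn1 (chr19:6046520-6046562, plus strand): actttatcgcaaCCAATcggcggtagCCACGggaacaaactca
Herpud1, ERSE-II (chr8:94386365-94386399, plus strand): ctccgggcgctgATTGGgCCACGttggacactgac
Counted with the first transcribed base as 0, the element lay closest to the start in Syvn1, at -44 to -26, and in Hspa5, at -65 to -47. It lay farthest away at the far site of Hsp90b1, at -212 to -194. GENCODE M21 places the start of a transcript of Hspa5 farther upstream than RefSeq does, so the bases shown for Hspa5 are annotated there as its 5′ untranslated region. The short form was found in Herpud1, at -52 to -42, and in Dnajb11, at 7 to 17, 2 of 26 genes (7.69%) against 12 of all genes in the table (0.0444%). The element of Creld2, on chromosome 15 from 88819520 to 88819538, was at the same bases as that of Alg12, a mannosyltransferase gene read in the opposite direction. TGACGTG, the core of the unfolded protein response element, was found in 1 of the 26 genes (3.85%; Hspa5, at -157 to -151) against 2.22% of all genes. TGATGNAA, a form of the amino acid response element, was also found in 1 of the 26 genes (Herpud1, at -112 to -105), against 4.51% of all genes. A match describes letters in a window of sequence, and neither binding nor use of these sites was measured.

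**Figure D1:**
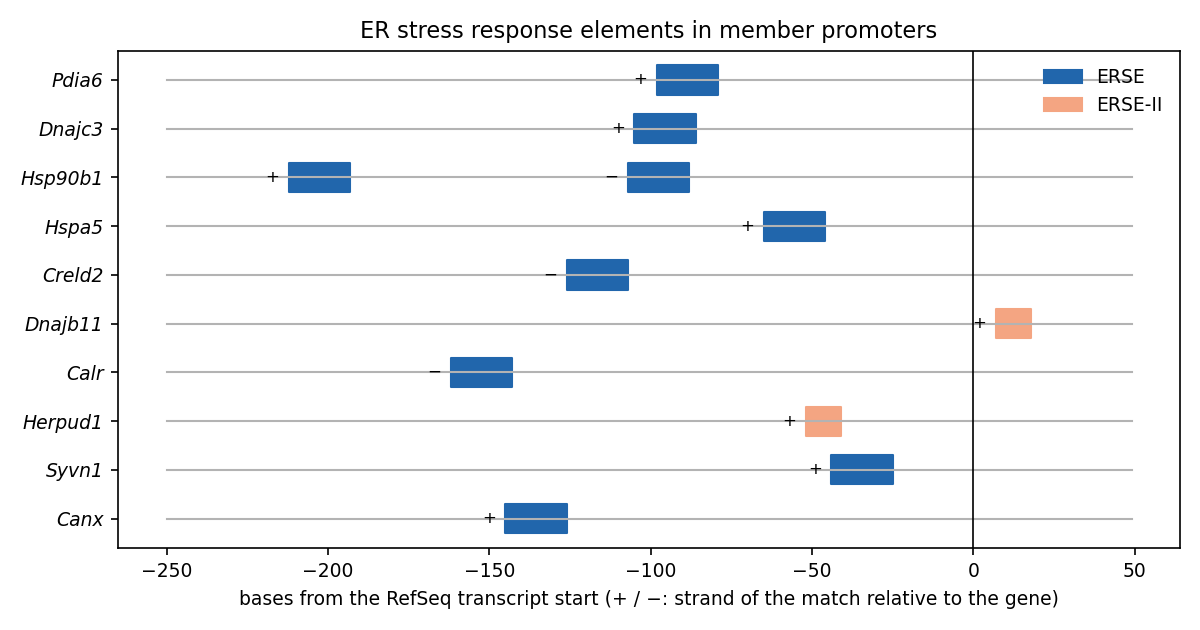
Position of the ER stress response element (ERSE) and its short form (ERSE-II) in the 10 promoters that hold one, in bases from the RefSeq transcript start, with + or − for the strand of the match relative to the gene. All matches but that of Dnajb11, at 7 to 17, lie before the start, and Hsp90b1 holds 2.

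The libraries held 9997527 to 11254961 expected counts, which RSEM estimates from the aligned reads. None of 8 macrophage markers was at 0 in every library, and their summed level was 12351 to 12535 CPM (counts relative to the scaled total of each library) with RANKL and acetate, 5813 to 5885 CPM with RANKL, and 19288 to 19649 CPM at day 0. Osteoclast markers summed to 803 to 850.1 CPM with RANKL and acetate, 3063 to 3069 CPM with RANKL, and 71.1 to 75.3 CPM at day 0, with Calcr at 0 in every library. Markers of B and plasma cells summed to 4.07 to 4.49 CPM with RANKL and acetate, 2.83 to 3.32 CPM with RANKL, and 21.8 to 29.1 CPM at day 0. The plasma cell genes Jchain and Mzb1 were at 0 in every library, and Ighm, a member of that list, averaged 3.65 ± 0.639 CPM with RANKL and acetate, 2.28 ± 0.0728 CPM with RANKL, and 23.8 ± 5.32 CPM at day 0 (SD, n = 2 each). Megakaryocyte markers summed to 89.6 to 93.0 CPM with RANKL and acetate, 80.2 to 86.2 CPM with RANKL, and 345 to 363 CPM at day 0. Neutrophil markers summed to 178 to 184 CPM with RANKL and acetate, 189.98 to 191 CPM with RANKL, and 248 to 255 CPM at day 0. Dendritic cell markers summed to 344 to 371 CPM with RANKL and acetate, 228 to 239 CPM with RANKL, and 344 to 351 CPM at day 0. Endothelial markers summed to 23.3 to 27.4 CPM with RANKL and acetate, 11.8 to 17.3 CPM with RANKL, and 28.5 to 29.6 CPM at day 0. Stromal and osteoblast markers summed to 10.7 to 11.6 CPM with RANKL and acetate, 14.9 to 15.1 CPM with RANKL, and 6.28 to 6.93 CPM at day 0. The macrophage, B and plasma cell, megakaryocyte and endothelial sums stood in the same order as most of the 32 genes. Those of osteoclasts and of stromal cells and osteoblasts stood in the opposite order. Markers of T and NK, erythroid and mast cells were at or near 0 in every library. The part of these markers in the results was not tested. In bulk RNA, fewer cells of a type and less RNA per cell cannot be told apart.

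After 1 day with RANKL, the ER folding genes were lower than at day 0. Of the 32 genes, 27 fell, 2 rose (Ern1 and Ssr2) and 3 did not pass the test (Sec61b, Sec61g and Ssr1). Of all 12224 genes tested, 33.5% fell, 32.8% rose and 66.3% were called in either direction. The median log2 fold change of the 32 genes was -0.63, against 0.01 over all genes tested, and 17 of the 32 fell by at least 1.5-fold, against 21.2% of all genes. None rose by that much, against 16.6% of all genes. The libraries of the RANKL group and those of day 0 did not overlap for 29 of the 32 genes, against 81.4% of all genes tested. Both rises missed the threshold without RANKL replicate 1. On log2 FPKM with limma, the falls of Atf6 (adjusted p = 0.452), Edem1 (0.201), Sec61a1 (0.0841) and Eif2ak3 (0.0777) did not pass.

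With acetate added to RANKL, most of these genes were slightly higher than with RANKL alone. Of the 32 genes, 18 rose, 2 fell (Ern1 and Edem1) and 12 did not pass the test, where 16.7% of all genes rose, 13.7% fell and 30.4% were called. The median log2 fold change was 0.17, against 0.00 over all genes tested. None of the 32 genes changed by 1.5-fold or more in this comparison, against 7.70% of all genes that rose and 2.84% that fell by that much. The libraries of the 2 groups did not overlap for 28 of the 32 genes, against 62.9% of all genes tested. On log2 TPM and on log2 FPKM with limma, the rises of Dnajb11, Hyou1, Derl2, Ssr1 and Ssr3 and the fall of Ern1 did not pass (adjusted p from 0.0504 to 0.291), nor did the rise of Dnajc3 on log2 FPKM (0.0506).

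Cells given RANKL and acetate still held less of these transcripts than cells at day 0. Relative to day 0, 27 of the 32 genes fell, 2 rose (Ssr1 and Ssr2) and 3 did not pass the test (Ern1, Sec61b and Sec61g), where 30.4% of all genes fell, 30.3% rose and 60.7% were called. The median log2 fold change was -0.50, against 0.00 over all genes, and 12 genes fell by at least 1.5-fold, against 17.0% of all genes. None rose by that much, against 14.0% of all genes. The groups did not overlap for 29 of the 32 genes, against 78.6% of all genes tested. The fall of Atf6 did not pass on log2 FPKM (adjusted p = 0.0972 by limma), that of Sec61a1 on log2 FPKM (0.43) or with upper-quartile factors (0.155 by edgeR), and the rise of Ssr1 on log2 TPM (0.0978 by limma with a pseudocount of 0.1). The 3 comparisons share libraries, so their fold changes are set side by side and are not independent of each other. By the order of the group means, 25 genes were lowest with RANKL, in the middle with RANKL and acetate, and highest at day 0. Atf6, Eif2ak3, Syvn1 and Edem1 were lowest with RANKL and acetate and highest at day 0, Ern1 was lowest with RANKL and acetate and highest with RANKL, and Ssr1 and Ssr2 were lowest at day 0 and highest with RANKL and acetate.

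**Figure D2:**
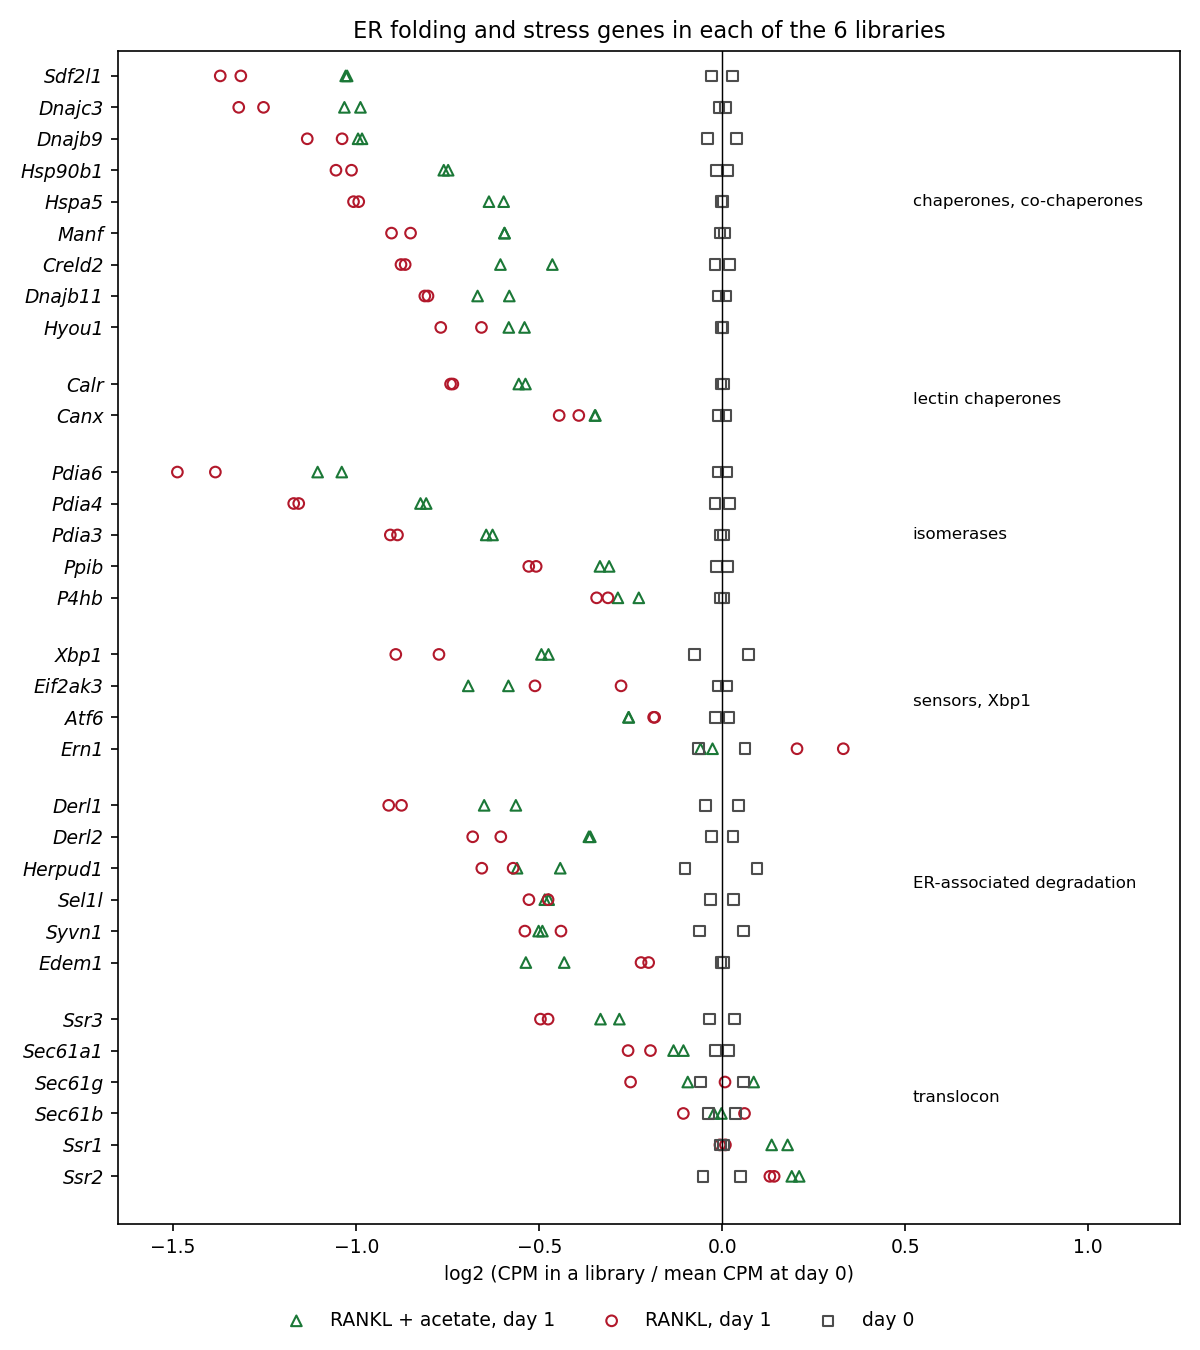
Each of the 32 genes in each of the 6 libraries, as log2 of its CPM over its mean CPM at day 0, grouped by role; triangles are RANKL with acetate, circles RANKL and squares day 0. For most genes the circles lie farthest to the left and the triangles between circles and squares, and 5 of the 6 translocon genes, Ssr3 apart, lie near 0.

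Per transcript length and library total (TPM), the 32 genes together made up 0.766% and 0.769% of all transcripts with RANKL and acetate, 0.684% and 0.668% with RANKL, and 1.10% and 1.12% at day 0. The chaperones and co-chaperones took the largest part, with summed TPM of 2683 and 2694 with RANKL and acetate, 2223 and 2131 with RANKL, and 4189 and 4374 at day 0. The translocon genes differed least in their sum, at 1307 and 1340.1 TPM with RANKL and acetate, 1315 and 1283 TPM with RANKL, and 1401 and 1409.7 TPM at day 0. The groups did not overlap for the chaperones, and for the translocon genes the libraries of both day 1 groups overlapped and lay below those of day 0. In mean TPM at day 0 the genes ran from Calr (1696), Hspa5 (1534) and Hsp90b1 (1011) down to Dnajb9 (30.5), Eif2ak3 (16.2) and Ern1 (12.8). Atf6 was close to that lower end, so the transcripts of all 3 sensors were among the least abundant of the 32.

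All 9 chaperones and co-chaperones of the ER lumen fell with RANKL, with log2 fold changes from -1.34 to -0.71. Of all genes tested, 33.5% fell in this comparison. Hspa5, which encodes BiP, the Hsp70 of the ER that binds unfolded chains and holds the sensors inactive (chromosome 2, 34771970 to 34777547 on GRCm38), was at 1451 and 1492 CPM with RANKL and acetate, 1123 and 1134 CPM with RANKL, and 2259.5 and 2254 CPM at day 0. The RANKL libraries were the lowest and the day 0 libraries the highest, and no groups overlapped. Its log2 fold change with RANKL against day 0 was -1.0002 ± 0.03 (SE), with an adjusted p of 2.46e-25 (quasi-likelihood test of edgeR, adjusted after Benjamini and Hochberg). With RANKL and acetate it was higher than with RANKL, at 0.38 ± 0.03 (adjusted p = 8.21e-13), and lower than at day 0, at -0.62 ± 0.03 (adjusted p = 3.63e-19). Hsp90b1, the Hsp90 of the ER, which folds Toll-like receptors and integrins (chromosome 10, 86690209 to 86705509), was at 1112 and 1121 CPM with RANKL and acetate, 933 and 906 CPM with RANKL, and 1863 and 1904 CPM at day 0. Its groups stood in the same order without overlap, with log2 fold changes of -1.03 ± 0.03 for RANKL against day 0 and 0.28 ± 0.03 for RANKL with acetate against RANKL. Reads of 1810014B01Rik, a pseudogene on the other strand that overlaps Hsp90b1 (19.6 CPM on average), could not be told apart from its own if strand was not used in counting, which the sources used here do not say.

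The co-chaperones that work with BiP were also lowest with RANKL. Sdf2l1, a partner of BiP and its J-domain proteins, was at 104 and 104 CPM with RANKL and acetate, 85.0 and 81.8 CPM with RANKL, and 207 and 216 CPM at day 0. Its log2 fold change of -1.34 ± 0.05 with RANKL against day 0 was the most negative among the chaperones. Dnajc3, a J-domain co-chaperone that also inhibits the Eif2ak3 product, was at 138 and 134 CPM with RANKL and acetate, 115 and 109.8 CPM with RANKL, and 276 and 273 CPM at day 0. Its libraries with RANKL were the lowest and those of day 0 were the highest, at -1.29 ± 0.05 for RANKL against day 0 and 0.28 ± 0.05 for RANKL with acetate against RANKL. Dnajb9, a J-domain protein that brings BiP to the Ern1 product, was at 17.9 and 18.1 CPM with RANKL and acetate, 16.3 and 17.4 CPM with RANKL, and 36.7 and 34.7 CPM at day 0. It fell with RANKL by 2.12-fold (adjusted p = 2.29e-10 by edgeR), and it was the 1 gene of the 9 for which acetate with RANKL against RANKL did not pass the test, at 0.10 ± 0.12 (adjusted p = 0.611), although its libraries did not overlap.

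The other 4 genes of this group fell with RANKL, with log2 fold changes from -0.88 to -0.71. Manf, a secreted protein that binds BiP, was at 175 and 175 CPM with RANKL and acetate, 141 and 147 CPM with RANKL, and 266 and 264 CPM at day 0, and Creld2, a stress-induced ER protein, was at 76.5 and 84.4 CPM with RANKL and acetate, 63.4 and 63.9 CPM with RANKL, and 115 and 118 CPM at day 0. Both were lowest with RANKL and highest at day 0, with 0.28 ± 0.05 for Manf and 0.34 ± 0.07 for Creld2 with RANKL and acetate against RANKL. Hyou1, which exchanges the nucleotide of BiP, was at 309.9 and 319 CPM with RANKL and acetate, 272 and 294 CPM with RANKL, and 465 and 464 CPM at day 0. Dnajb11, a J-domain protein that binds unfolded chains, was at 168 and 158 CPM with RANKL and acetate, 143 and 144 CPM with RANKL, and 249 and 253 CPM at day 0. Both fell with RANKL and rose with acetate in the fit of all libraries, at 0.15 ± 0.04 for Hyou1 and 0.18 ± 0.05 for Dnajb11, but these 2 rises rested on single libraries. Without replicate 2 of RANKL with acetate the adjusted p of Hyou1 was 0.09 by edgeR, and without RANKL replicate 1 it was 0.151. Without replicate 1 of RANKL with acetate the adjusted p of Dnajb11 was 0.0987. Manf overlaps Dcaf1 (32.8 CPM) and Rbm15b (46.8 CPM), and part of its reads may be theirs.

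**Figure D3:**
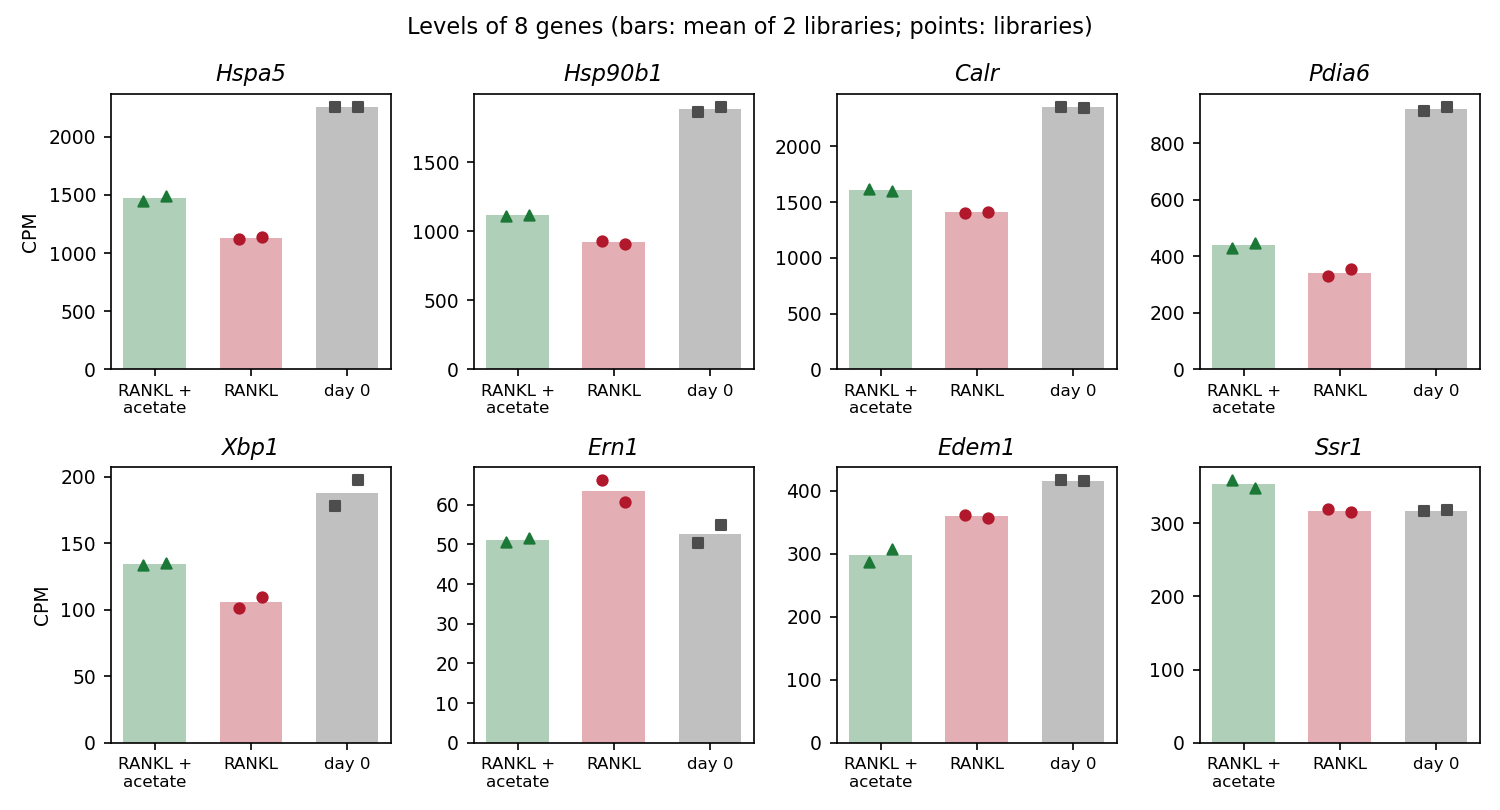
Level in CPM of 8 genes with RANKL and acetate, with RANKL and at day 0; bars are means of 2 libraries and points are libraries. Hspa5, Hsp90b1, Calr, Pdia6 and Xbp1 are lowest with RANKL and highest at day 0, Ern1 is highest with RANKL, Edem1 is lowest with RANKL and acetate, and Ssr1 is highest with RANKL and acetate.

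The lectin chaperones Calr and Canx hold newly made glycoproteins by their sugar chains, and both fell with RANKL. Calr, which also stores calcium (chromosome 8, 84841850 to 84846934), was at 1619.9 and 1599.5 CPM with RANKL and acetate, 1406 and 1412 CPM with RANKL, and 2357 and 2345 CPM at day 0. It was 1.67-fold lower with RANKL than at day 0 and 1.14-fold higher with RANKL and acetate than with RANKL, and its groups did not overlap. Canx, its relative in the membrane, was at 720.0 and 719 CPM with RANKL and acetate, 698 and 672 CPM with RANKL, and 909 and 922 CPM at day 0. Canx fell with RANKL by 1.34-fold (log2 fold change -0.42 ± 0.03), while RANKL with acetate against RANKL did not pass the test, at 0.07 ± 0.03 (adjusted p = 0.119 by edgeR).

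All 5 isomerases fell with RANKL, with a median log2 fold change of -0.90, and 4 of the 5 rose with acetate. Of all genes tested, 33.5% fell with RANKL and 16.7% rose with acetate. Pdia6, a protein disulfide isomerase (chromosome 12, 17266545 to 17284770), was at 429 and 449 CPM with RANKL and acetate, 329 and 353 CPM with RANKL, and 915 and 929.5 CPM at day 0. The day 0 libraries were well above those of RANKL, and those of RANKL and acetate lay between them. Its log2 fold change with RANKL against day 0, -1.44 ± 0.04 (adjusted p = 3.18e-26 by edgeR), was the most negative of all 32 genes, and it was 0.36 ± 0.04 with RANKL and acetate against RANKL. Pdia4, of the same family, was at 207 and 209 CPM with RANKL and acetate, 164 and 163 CPM with RANKL, and 362 and 371 CPM at day 0. Pdia3, which joins Calr and Canx to form disulfide bonds in glycoproteins, was at 842 and 832 CPM with RANKL and acetate, 694 and 703 CPM with RANKL, and 1304 and 1297 CPM at day 0. For both, RANKL was lowest and day 0 highest without overlap, at -1.16 ± 0.04 for Pdia4 and -0.90 ± 0.03 for Pdia3 with RANKL against day 0. P4hb, the founding member of the family, was at 829.8 and 863 CPM with RANKL and acetate, 797 and 814 CPM with RANKL, and 1014 and 1008 CPM at day 0. It fell by less, at -0.33 ± 0.03, and RANKL with acetate against RANKL did not pass the test, at 0.07 ± 0.03 (adjusted p = 0.109). Ppib, the prolyl isomerase cyclophilin B, was at 185 and 182 CPM with RANKL and acetate, 161 and 159 CPM with RANKL, and 232 and 227 CPM at day 0. It fell with RANKL, at -0.52 ± 0.05, and rose with acetate, at 0.20 ± 0.05, and it overlaps Snx22 (29.7 CPM) on the other strand.

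The sensors differed among themselves. Ern1, which encodes the kinase and nuclease that splices Xbp1 mRNA (chromosome 11, 106394650 to 106487852), was at 50.5 and 51.7 CPM with RANKL and acetate, 66.2 and 60.6 CPM with RANKL, and 50.3 and 54.9 CPM at day 0. The RANKL libraries were the highest, and those of RANKL with acetate and of day 0 overlapped. Its log2 fold change was 0.27 ± 0.08 with RANKL against day 0 (adjusted p = 0.00238 by edgeR) and -0.31 ± 0.08 with RANKL and acetate against RANKL (adjusted p = 0.00165). Neither call held in every setting. The rise with RANKL ended without RANKL replicate 1 (adjusted p = 0.061), without day 0 replicate 1 (0.0521) and on log2 TPM (0.0986 with a pseudocount of 0.1). The fall with acetate ended without RANKL replicate 1 (0.0601), on log2 TPM (0.158) and on log2 FPKM (0.131).

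Eif2ak3, the kinase that slows translation by phosphorylating an initiation factor, was at 28.7 and 31.0 CPM with RANKL and acetate, 38.3 and 32.6 CPM with RANKL, and 46.0 and 46.8 CPM at day 0. It fell with RANKL, at -0.39 ± 0.09, and was -0.64 ± 0.10 with RANKL and acetate against day 0. RANKL with acetate against RANKL was at -0.25 ± 0.10 and missed the threshold (adjusted p = 0.0523 by edgeR), while it passed without RANKL replicate 2 (-0.36, adjusted p = 0.023), with RLE factors (0.048), with upper-quartile factors (0.0374) and with the filter of 5 CPM (0.046). Atf6, the membrane-bound transcription factor that is cut free in the Golgi, was at 131 and 131 CPM with RANKL and acetate, 138 and 138 CPM with RANKL, and 155 and 159 CPM at day 0. It was lower in both groups with RANKL than at day 0 without overlap, at -0.26 ± 0.05 with RANKL and acetate and at -0.19 ± 0.05 with RANKL. On log2 TPM with a pseudocount of 0.1 the value with RANKL was -0.18 and did not pass (adjusted p = 0.0765 by limma).

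Xbp1, the transcription factor that becomes active when its mRNA is spliced by the Ern1 product (chromosome 11, 5520659 to 5525893), was at 133 and 135 CPM with RANKL and acetate, 101 and 109.8 CPM with RANKL, and 178 and 197 CPM at day 0. Unlike the other 3 genes it stood in the order of the chaperones, lowest with RANKL and highest at day 0, and no groups overlapped. Its log2 fold change was -0.83 ± 0.06 with RANKL against day 0 (adjusted p = 3.28e-15 by edgeR) and 0.35 ± 0.06 with RANKL and acetate against RANKL (adjusted p = 9.27e-06). The transcript Xbp1-201 held 92.2% and 90.0% of the expected counts of the gene with RANKL and acetate, 94.0% and 92.5% with RANKL, and 92.3% and 92.9% at day 0. The Ern1 product cuts out a very short intron, and the shortest intron annotated by GENCODE M21 in any of the 4 Xbp1 transcripts of the table has 300 bases. Reads of spliced and unspliced Xbp1 are thus not counted apart, and the spliced form was not analysed here.

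Genes of ER-associated degradation, by which misfolded proteins are drawn back to the cytosol, fell with RANKL in 6 of 6 cases, with a median log2 fold change of -0.56. The share of all genes tested that fell was 33.5%. Derl1, a derlin of the retrotranslocation channel, was at 124 and 132 CPM with RANKL and acetate, 104 and 106 CPM with RANKL, and 201 and 189 CPM at day 0, and Derl2, its relative, was at 66.3 and 66.1 CPM with RANKL and acetate, 53.1 and 56.0 CPM with RANKL, and 83.4 and 86.9 CPM at day 0. In both the RANKL libraries were lowest and the day 0 libraries highest, and both rose with acetate, at 0.29 ± 0.05 for Derl1 and 0.28 ± 0.07 for Derl2. On log2 TPM with a pseudocount of 0.1 the rise of Derl2 did not pass the test (0.23, adjusted p = 0.0517 by limma), and Derl2 overlaps Mis12 (62.4 CPM).

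The ubiquitin ligase of this pathway is encoded by Syvn1 and its adaptor by Sel1l, and both fell with RANKL but did not pass the test with acetate. Syvn1 was at 53.2 and 52.8 CPM with RANKL and acetate, 55.1 and 51.5 CPM with RANKL, and 77.9 and 71.7 CPM at day 0, and Sel1l was at 209.7 and 208 CPM with RANKL and acetate, 209 and 202 CPM with RANKL, and 298 and 285 CPM at day 0. The 2 groups given RANKL overlapped for both genes, and the day 0 libraries lay above them. Syvn1 was -0.49 ± 0.07 with RANKL against day 0 and -0.01 ± 0.08 with RANKL and acetate against RANKL (adjusted p = 0.955 by edgeR), and it overlaps Mrpl49 (49.1 CPM). Sel1l was at -0.50 ± 0.04 and 0.02 ± 0.04 in the same comparisons. Herpud1, a membrane protein that assembles the ligase complex, was at 45.4 and 41.8 CPM with RANKL and acetate, 41.5 and 39.1 CPM with RANKL, and 65.8 and 57.5 CPM at day 0. It fell with RANKL, at -0.61 ± 0.08, and did not pass the test with acetate, at 0.11 ± 0.09.

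Edem1, which marks misfolded glycoproteins for degradation by trimming mannose, was lowest with RANKL and acetate. It was at 287 and 308 CPM with RANKL and acetate, 362 and 357 CPM with RANKL, and 417 and 415 CPM at day 0, and no groups overlapped. Edem1 fell with RANKL, at -0.21 ± 0.04, and fell again with acetate, at -0.27 ± 0.04 (adjusted p = 2.38e-06 by edgeR), which made it -0.48 ± 0.04 with RANKL and acetate against day 0. On log2 FPKM, where the median of all genes for RANKL against day 0 was 0.13, the first of these values was -0.09 and did not pass (adjusted p = 0.201 by limma).

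The 6 genes of the translocation channel and its partner complex moved least, with a median log2 fold change of -0.07 with RANKL against day 0. Of the 3 channel subunits, Sec61a1, which forms the pore, was at 277 and 272 CPM with RANKL and acetate, 249 and 260.2 CPM with RANKL, and 302 and 294 CPM at day 0. It fell with RANKL, at -0.23 ± 0.04, and missed the threshold with acetate, at 0.11 ± 0.04 (adjusted p = 0.0503 by edgeR). Without RANKL replicate 2 that adjusted p was 0.048, and with the filter of 5 CPM it was 0.0399. Its fall with RANKL and acetate against day 0, at -0.12 ± 0.04, ended without replicate 2 of RANKL with acetate (adjusted p = 0.101) and without day 0 replicate 1 (0.109). Sec61b was at 115 and 117 CPM with RANKL and acetate, 109 and 122 CPM with RANKL, and 120.2 and 114 CPM at day 0, and all groups overlapped. Sec61g was at 70.9 and 80.3 CPM with RANKL and acetate, 76.0 and 63.6 CPM with RANKL, and 72.6 and 78.7 CPM at day 0, also with overlap, but its expected counts were not whole numbers in any library and differed from one by up to 0.49, so its level, which rests on reads shared between loci, is uncertain. Without RANKL replicate 1, Sec61g was at -0.25 with RANKL against day 0 and passed the test (adjusted p = 0.0272).

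The other 3 encode subunits of the complex that sits beside the channel and helps chains enter it, and their orders differed. Ssr3 fell with RANKL, at -0.49 ± 0.04, and rose with acetate, at 0.18 ± 0.04, and was at 339 and 327 CPM with RANKL and acetate, 296 and 292 CPM with RANKL, and 402 and 422 CPM at day 0. Ssr1 was at 359 and 348 CPM with RANKL and acetate, 319 and 316 CPM with RANKL, and 316 and 318 CPM at day 0, with overlap between RANKL and day 0 and higher libraries with RANKL and acetate. It rose with RANKL and acetate against RANKL, at 0.16 ± 0.04 (adjusted p = 0.00241 by edgeR), a call that ended without replicate 1 of RANKL with acetate (adjusted p = 0.0568). Ssr2 was at 154 and 152 CPM with RANKL and acetate, 146 and 147 CPM with RANKL, and 138 and 129 CPM at day 0, lowest at day 0 without overlap. It rose with RANKL against day 0, at 0.14 ± 0.05 (adjusted p = 0.0212), but not without RANKL replicate 1 (adjusted p = 0.0515), RANKL replicate 2 (0.0711) or day 0 replicate 2 (0.227), nor by DESeq2 (0.0809). With RANKL and acetate against day 0 it rose by 0.20 on the log2 scale (adjusted p = 0.00122).

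**Figure D4:**
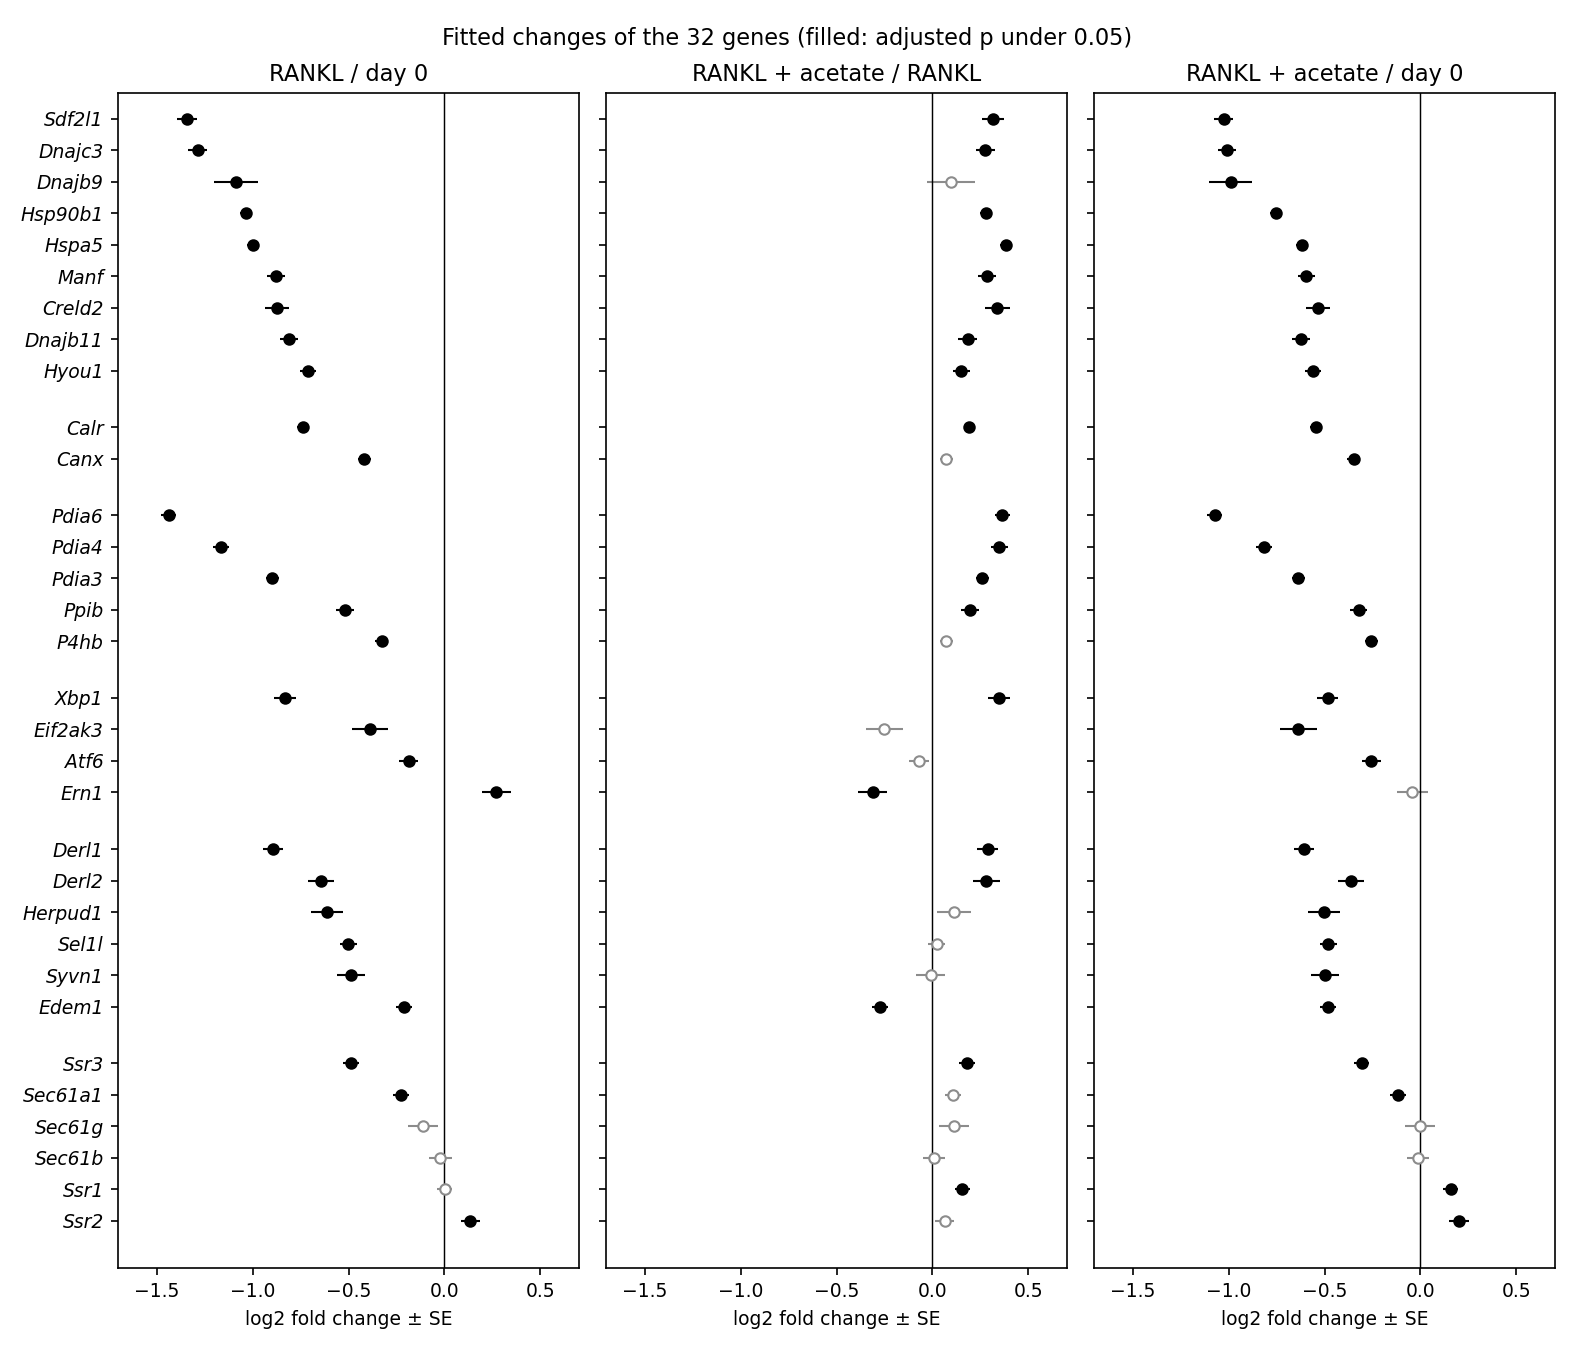
Fitted log2 fold changes with standard errors of the 32 genes grouped by role, in panels for RANKL over day 0, for RANKL with acetate over RANKL alone, and for RANKL with acetate over day 0; filled points passed the test at an adjusted p of 0.05. In the first panel the chaperones lie between -1.34 and -0.71 and the translocon genes between -0.49 and 0.14, and in the middle panel all 32 genes lie between -0.31 and 0.38.

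The genes that hold the ER stress response element were set beside those that do not, with no test of the difference. All 8 with the element fell with RANKL against day 0, with a median log2 fold change of -0.94 and a range from -1.44 (Pdia6) to -0.42 (Canx). Of the 16 genes with a promoter in the table and neither form of the element, 12 fell and 1 rose, with a median of -0.49 and a range from -1.34 (Sdf2l1) to 0.27 (Ern1). The roles also differed between these sets. Of the 8, all but Syvn1 are chaperones, co-chaperones or isomerases, while the 16 also hold translocon genes and sensors. Element and role were not told apart here. Among all 32 genes 27 fell and 2 rose, and of all genes tested 33.5% fell and 32.8% rose. With RANKL and acetate against RANKL, 6 of the 8 rose and none fell, with a median of 0.28, and 8 of the 16 rose and 2 fell, with a median of 0.13. Among all 32 genes 18 rose and 2 fell in this comparison, and of all genes tested 16.7% rose and 13.7% fell. The ranges overlapped, and Sdf2l1, Pdia4 and Dnajb9, which fell with RANKL at -1.34, -1.16 and -1.09, held neither form in this window. Outside the 32 genes, the element was found in 29 genes, 7 of which were tested. Of these, 2 fell with RANKL and 3 rose, where 33.5% of all genes tested fell and 32.8% rose. The 2 that fell were Alg12, at -0.51, and Ero1b, an oxidase that supplies disulfide bonds, at -0.60. The 3 that rose were Hnrnpa3, at 0.18, Pan2, at 0.52, and Adcy3, an adenylyl cyclase, at 0.64. These names were chosen after their values were seen.

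Other genes of the same pathways were grouped into 8 lists. With RANKL against day 0, genes that fell outnumbered those that rose in 6 of them, where 33.5% of all genes tested fell and 32.8% rose. Of 8 calcium genes 7 fell and 1 rose, with a median log2 fold change of -0.63, and of 23 transport genes tested 13 fell and 1 rose, with a median of -0.27. Of 24 further folding and oxidation genes 17 fell and 3 rose (median -0.43), of 21 further degradation genes 12 fell and 2 rose (median -0.30), of 17 genes of sugar chain transfer and trimming 9 fell and 2 rose (median -0.19), and of 19 genes of translocation and signal peptide removal 9 fell and 4 rose (median -0.08). Of 11 other sensors and their partners 6 rose and 2 fell (median 0.32), and the integrated stress response had 6 of 15 that rose and 6 that fell (median -0.02). With RANKL and acetate against RANKL, 5 of the 8 calcium genes and 7 of the 23 transport genes rose and none fell, with medians of 0.28 and 0.08, while 7 folding genes rose and 1 fell, 5 sugar chain genes rose and 1 fell, 4 translocation genes rose and 2 fell, and 1 degradation gene rose and 4 fell. Among the other sensors 1 rose and 4 fell, and in the integrated stress response 3 rose and 3 fell. Over all genes tested, 16.7% rose and 13.7% fell in this comparison, and several lists lay near these shares.

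**Figure D5:**
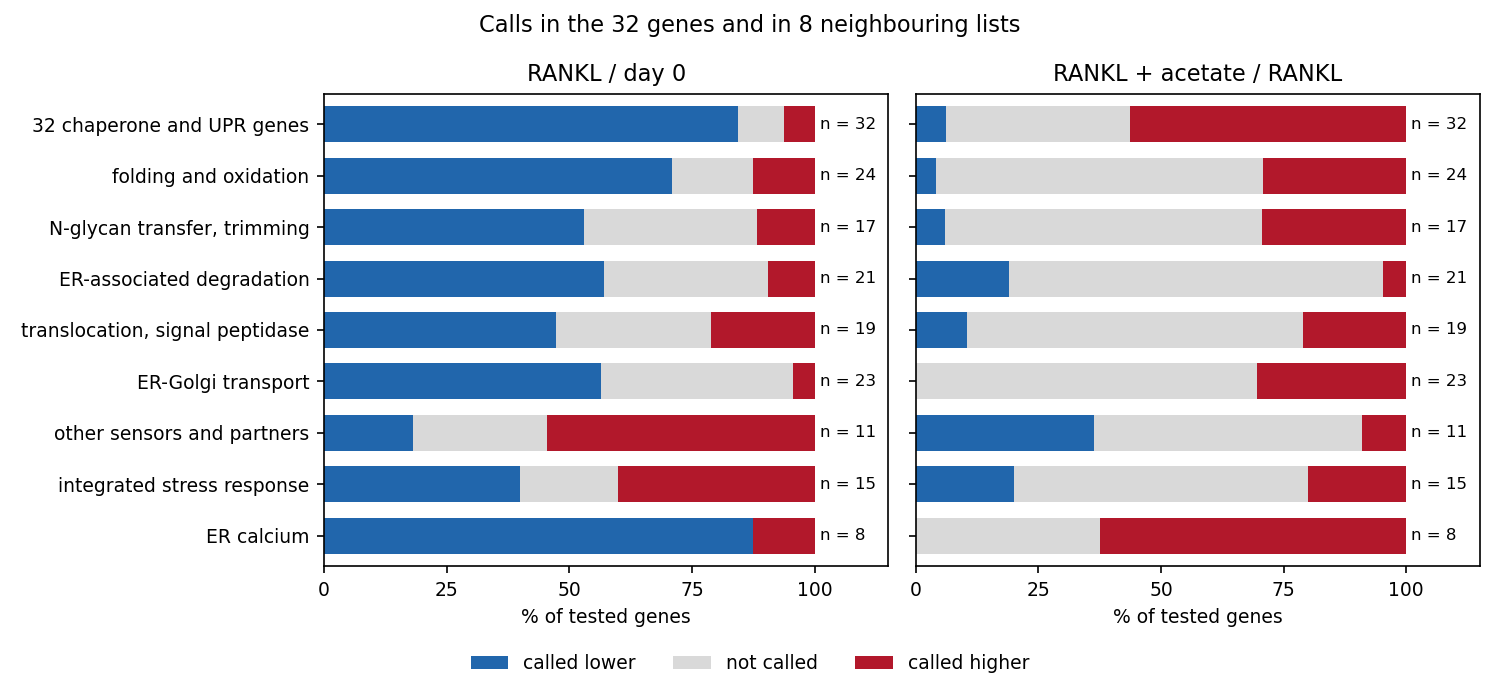
Share of tested genes called lower, not called and called higher in the 32 genes and in 8 lists of related genes, for RANKL against day 0 and for RANKL with acetate against RANKL; n is the number of genes tested. In the left panel the called genes of most lists are mainly lower, and in the other sensors and partners 6 of 11 are higher.

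Itpr2 and Stim2 are counted in the calcium list, though both changed sign on log2 TPM for RANKL against day 0. Atp2a3, a calcium pump of the ER, was at 47.9 and 41.7 CPM with RANKL and acetate, 22.5 and 25.6 CPM with RANKL, and 80.4 and 74.7 CPM at day 0. It was lowest with RANKL and highest at day 0 without overlap, at -1.69 ± 0.09 with RANKL against day 0 (adjusted p = 5.63e-18 by edgeR) and 0.90 ± 0.10 with RANKL and acetate against RANKL (adjusted p = 2.44e-09). Atp2a2, the more widely used pump, was at 504 and 511 CPM with RANKL and acetate, 496 and 487 CPM with RANKL, and 553 and 577 CPM at day 0, and only its difference from day 0 passed, at -0.20 ± 0.04 with RANKL, though not on log2 FPKM (adjusted p = 0.184 by limma). Stim1, the sensor of ER calcium, fell with RANKL at -1.16 ± 0.09, as did Orai1, the channel it opens, at -1.34 ± 0.10. The release channel Itpr3 fell at -0.84 ± 0.06 and rose with acetate at 0.27 ± 0.06, while Itpr1 was at -0.33 ± 0.09 and 0.77 ± 0.09. On log2 TPM with a pseudocount of 0.1 and on log2 FPKM, neither the rise of Itpr3 with acetate (adjusted p = 0.148 and 0.166 by limma) nor the fall of Itpr1 with RANKL (0.124 and 0.297) passed. Itpr2, at -0.42 ± 0.11, and Stim2, the 1 calcium gene that rose, at 0.38 ± 0.09, are those with the changed sign. Surf4, a cargo receptor for export from the ER, fell at -0.81 ± 0.04 and rose with acetate at 0.22 ± 0.04, and Tmed10, a coat receptor, at -0.52 ± 0.04 and 0.29 ± 0.04. The rise of Surf4 with acetate did not pass on log2 TPM with a pseudocount of 0.1 or on log2 FPKM (adjusted p = 0.109 and 0.16 by limma).

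Txndc5, a disulfide isomerase, fell with RANKL at -0.53 ± 0.04 and rose with acetate at 0.20 ± 0.05, a rise that did not pass on log2 FPKM (adjusted p = 0.0652 by limma). Stt3b, a catalytic subunit of the enzyme that attaches sugar chains, fell with RANKL at -0.65 ± 0.04, as did Uggt1, which returns unfolded glycoproteins to Calr and Canx, at -0.62 ± 0.04. Among degradation genes, the lectin Os9 fell with RANKL at -0.48 ± 0.05. Vcp, the ATPase that pulls proteins out of the membrane, fell with acetate against RANKL at -0.15 ± 0.03, and Ngly1, which removes their sugar chains, at -0.95 ± 0.17.

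Some genes of these lists rose with RANKL and fell with acetate. Sec11c, a catalytic subunit of the signal peptidase, was at 202 and 216 CPM with RANKL and acetate, 291 and 292 CPM with RANKL, and 102 and 111 CPM at day 0, highest with RANKL and lowest at day 0 without overlap. It rose with RANKL at 1.45 ± 0.05 and fell with acetate at -0.48 ± 0.05 (adjusted p = 2.27e-23 and 2.11e-10 by edgeR), while Tram1, a membrane protein beside the channel, fell at -1.14 ± 0.05 and rose at 0.28 ± 0.05. On log2 FPKM the rise of Tram1 did not pass (adjusted p = 0.0507 by limma). Mogs, the glucosidase that makes the first cut in the sugar chain, was at 142 and 134 CPM with RANKL and acetate, 179.7 and 178 CPM with RANKL, and 91.8 and 90.0 CPM at day 0, with the same order as Sec11c. Among the other sensors and partners, Tmbim6 fell with RANKL at -0.59 ± 0.04 and rose with acetate at 0.17 ± 0.04. That rise did not pass by limma on log2 TPM or log2 FPKM. Of the same list, Traf2 and Bcl2l11, which join the stress sensors to inflammatory signalling and to cell death, rose with RANKL at 1.60 ± 0.08 and 1.55 ± 0.09. Both fell with acetate, and neither call held in every setting. The fall of Bcl2l11, at -0.49 ± 0.08, did not pass on log2 TPM (adjusted p = 0.231 by limma with a pseudocount of 0.1) or on log2 FPKM (0.2). That of Traf2, at -0.21 ± 0.07, did not pass on these scales either (0.121 and 0.0915) or by DESeq2 (0.109), and it ended without replicate 2 of RANKL with acetate (adjusted p = 0.149), without RANKL replicate 1 (0.0646) and without RANKL replicate 2 (0.0813).

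Below the Eif2ak3 product, the integrated stress response held genes that moved in opposite directions. Atf3, a transcription factor induced by many stresses, was at 16.1 and 18.2 CPM with RANKL and acetate, 6.34 and 5.92 CPM with RANKL, and 87.7 and 81.4 CPM at day 0. It was 13.8-fold lower with RANKL than at day 0 and 2.79-fold higher with RANKL and acetate than with RANKL (adjusted p = 7.34e-25 and 5.05e-10 by edgeR). Atf4, the central factor of the response, was at 212 and 209 CPM with RANKL and acetate, 228 and 246 CPM with RANKL, and 182 and 182 CPM at day 0, highest with RANKL and lowest at day 0. Atf4 rose with RANKL at 0.38 ± 0.05, and its fall with acetate, at -0.17 ± 0.05, ended without RANKL replicate 2 (adjusted p = 0.103). Asns, which makes asparagine, rose with RANKL at 0.99 ± 0.10, and was at -0.09 ± 0.09 with RANKL and acetate against RANKL. Ddit3, the cell death factor known as CHOP, named here after its values were seen, was at 6.98 and 6.84 CPM with RANKL and acetate, 7.03 and 6.37 CPM with RANKL, and 14.2 and 16.1 CPM at day 0, with overlap between both groups given RANKL. Eif2ak2, a kinase of the same initiation factor that answers to double-stranded RNA, was at 182 and 187 CPM with RANKL and acetate, 127 and 118 CPM with RANKL, and 139 and 139 CPM at day 0 and rose with acetate against RANKL at 0.59 ± 0.05 (adjusted p = 1.31e-11).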

How the data were processed

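RNA-seq was made from primary mouse bone marrow-derived macrophages in 3 groups of 2 libraries. Groups were taken from the sample titles; the title that ends in 1 is called replicate 1, and the title without a number replicate 2. Per the labels' protocols, RNA isolation used a miRNeasy kit with a DNase step, and libraries came from a SMARTer mRNA-seq kit. Tools named in the submitters' processing notes are Trimmomatic 0.39, STAR, RSEM 1.3.1 and DESeq2 1.26.0, with GRCm38 (mm10) as the build. The annotation and the use of strand are not named there. For each sample the authors deposited expected counts per gene and transcript, which RSEM estimates and which were not normalized, as well as TPM and FPKM, which the authors had scaled for transcript length and library total. Of the gene values, 97.1% lay within 0.005 of a whole number. The lengths deposited beside them were not used.

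After rounding, the expected counts were tested with edgeR 4.0.16 (R 4.3.3). Genes were kept by filterByExpr (minimum count 10, minimum total 15), libraries were scaled by TMM (factors 0.952 to 1.037), and all 6 libraries entered a single quasi-likelihood fit with a term for each group (3 residual and 29.5 prior degrees of freedom; biological coefficient of variation 3.58%). A call needs a p under 0.05 after Benjamini-Hochberg adjustment across all 12224 tested genes. The SE given with a log2 fold change is its absolute value divided by the square root of the quasi-likelihood F statistic. It thus rests on spread pooled over genes. CPM are counts relative to the TMM-scaled library total. The code was tested on simulated data. Replicates of a group differed by more than counting noise (chi-square per gene 1.93 to 2.60), so no library was treated as the same library deposited again. This does not tell separate cultures from repeated preparations of the same RNA.

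The 32 genes and the lists of related genes were chosen with earlier results of these data known. Named genes are the 32, up to 3 called genes with the smallest adjusted p in each list and comparison, and every gene of lists of 8 or fewer; other names are marked where they stand. Promoters are from RefSeq on GRCm38.p6, gene coordinates from GENCODE M21. Alternatives were DESeq2 1.42.0, upper-quartile and RLE scaling, the fit without a low-count filter or with a minimum of 5 CPM in 2 libraries, separate fits for each pair of groups, the replicate number as a block, limma 3.58.1 on log2 TPM (pseudocounts 0.1 and 1) and log2 FPKM (pseudocount 0.1), and each library left out in turn.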

Additional observations from a re-analysis of the deposited data

How the results depend on the processing

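Under 16 alternatives none of the calls of the 32 genes changed direction. For RANKL against day 0, 23 of 29 called genes stayed called in all of them, for RANKL with acetate against RANKL 13 of 20, and for RANKL with acetate against day 0 26 of 29. The 2 rises with RANKL against day 0 became 1 by DESeq2 and on log2 TPM with a pseudocount of 0.1 (1) and of 1 (1), and 0 to 2 with a library left out. The 2 falls with RANKL and acetate against RANKL became 1 on log2 TPM with either pseudocount (1 and 1) and on log2 FPKM (1), and 1 to 3 with a library left out. The 2 rises with RANKL and acetate against day 0 became 1 on log2 TPM with either pseudocount (1 and 1). The 18 rises with RANKL and acetate against RANKL became 13 on log2 TPM with either pseudocount and 12 on log2 FPKM. The median log2 fold change for RANKL against day 0, -0.628, was -0.562 with upper-quartile factors, -0.578 and -0.573 on log2 TPM with pseudocounts of 0.1 and 1, -0.462 on log2 FPKM, and -0.656 to -0.593 with a library left out. For RANKL with acetate against RANKL it was 0.131 on log2 FPKM. For RANKL with acetate against day 0 it was -0.449 with upper-quartile factors, -0.417 on log2 FPKM and -0.530 to -0.494 with a library left out. On log2 FPKM the median of all genes was 0.127 for RANKL against day 0, where it was 0.010 in the fit of counts. For RANKL against day 0, Itpr2 was at 0.016, 0.035 and 0.130 on log2 TPM (pseudocounts 0.1 and 1) and log2 FPKM, and Stim2 at -0.052 and -0.052 on log2 TPM. Over all genes, 2462 were called for RANKL with acetate against RANKL by DESeq2, 1843 and 1908 on log2 TPM with pseudocounts of 0.1 and 1, and 1894 on log2 FPKM, against 3717 by edgeR. The cause of these differences was not tested.

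Samples with the same replicate number did not deviate together (correlations of -0.0268 for RANKL with day 0, -0.00672 for RANKL with acetate with RANKL and -0.0633 for RANKL with acetate with day 0). This gave no sign that the numbers pair the samples. With 2 libraries a group, it cannot exclude that some samples share a culture or a batch. With the replicate number as a block, 27 of the 32 genes fell and 2 rose with RANKL against day 0, 18 rose and 2 fell with RANKL and acetate against RANKL, and 27 fell and 2 rose with RANKL and acetate against day 0. With 2 libraries a group the tests rest on spread pooled over genes and groups, and when a library is left out the lone library of its group is assumed to vary like the others.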
